A study of Mus musculus with 12 samples.

Results

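The genes described here are 6 matrix metalloproteinases (Mmp8, Mmp9, Mmp12, Mmp13, Mmp14 and Mmp19), the tissue inhibitors Timp1 and Timp2, and the urokinase pair Plau and Plaur. They were taken by name, 10 of the 31053 genes in the matrix, and followed through classes of immune cells from MC38 tumors. A cell entered a class with at least 3 unique molecular identifiers (UMIs, counted transcript molecules) of that class's marker list and more than of any other list. The classes held 111599 of 128912 cells: 96254 macrophages, 11028 monocytes, 2630 neutrophils and 1687 dendritic cells. A class of tumor-like cells, with Krt8 or Krt18 and without Ptprc (CD45), was also sought and held 0 cells, which allows a share of up to 0.00233% of the cells for barcodes that meet this gate; a cell with fewer keratin UMIs captured would be missed. Krt18 had 189 UMIs in all barcodes and Krt8 had 25, so no level is given for that class.

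The 12 samples came from C57BL/6 mice with subcutaneous tumors of MC38, a mouse colon adenocarcinoma line, taken on day 17, and the number of mice behind each sample is not stated in the sources used here. Vehicle or the EZH2 inhibitor PF-06821497 (EZH2i, 100 mg/kg, subcutaneous, daily) was given for 7 days from day 10 or for 16 days from day 1, with 3 samples for each agent and duration, and CD45+ cells were enriched on microbeads before 10x Genomics 3' sequencing. The barcodes carry library numbers from 1 to 12 that no label ties to a sample, so EZH2i and vehicle were not compared, no p-value is given, and library values are given singly or as a range with the median. The study's methods name female mice, but 6 libraries (1 to 6) held transcripts of Y-linked genes at 128 to 209 CPM (UMIs of a gene or list in 1000000 UMIs of the library or class) and the other 6 held 0 UMIs of them. Libraries held 21649947 to 158760328 UMIs and 3330 to 37413 kept cells, and 2261 barcode sequences (1.63%) occurred in more than one library. Library 4 stood apart for several of the genes, and values without it are given for Mmp12, Mmp13, Mmp19, Timp1 and Plaur. It held 1071 of the 2630 neutrophils. Of markers not used in the gates, Apoe was highest in macrophages (a median of 18350 CPM), S100a8 in neutrophils (24254 CPM), Ccr2 in monocytes (434 CPM) and Ccl22 in dendritic cells (938 CPM). Others went against the class names: Lyz2, a monocyte marker, had 7755 CPM in macrophages and 6656 CPM in monocytes, F10 had 248 CPM in neutrophils and 171 CPM in monocytes, and Itgax, a dendritic cell marker, had 129 CPM in macrophages and 82.9 CPM in dendritic cells.

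Matrix metalloproteinases are zinc enzymes made as inactive zymogens, which cut collagens, elastin and other matrix and surface proteins once their prodomain is removed. Tissue inhibitors of metalloproteinases block the active enzymes, and Timp2 also takes part in the activation of the Mmp2 zymogen by Mmp14 at the cell surface. Urokinase (Plau) bound to its receptor (Plaur) turns plasminogen into plasmin, a protease that can degrade matrix and activate several metalloproteinase zymogens. Transcript levels say nothing of how much zymogen is activated.

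Mmp13, Mmp12 and Mmp8 lie on the same strand within 296 kb of chromosome 9 (GRCm38, GENCODE M21), at chr9:7272514-7283331, chr9:7344381-7369499 and chr9:7558456-7568485. Mmp1b, Mmp3, Mmp1a and Mmp10 lie between Mmp12 and Mmp8 or overlap Mmp12, and of these Mmp3 had 355 UMIs, Mmp10 527 and Mmp1b 1 in all barcodes, against 238688 for Mmp12, 64090 for Mmp13 and 8520 for Mmp8. Mmp12 overlaps Mmp1b, which is on the opposite strand. Mmp8 had its highest level in another class than Mmp13 and Mmp12, so the promoter windows of all 3 are printed, from 250 bases before to 50 after each RefSeq start on GRCm38.p6, 5′ to 3′ on the + strand. Capitals mark TGAGTCA (reverse complement TGACTCA, the AP-1 consensus) and TATAAA (reverse complement TTTATA), both searched on both strands.
Mmp13, chr9:7272264-7272563: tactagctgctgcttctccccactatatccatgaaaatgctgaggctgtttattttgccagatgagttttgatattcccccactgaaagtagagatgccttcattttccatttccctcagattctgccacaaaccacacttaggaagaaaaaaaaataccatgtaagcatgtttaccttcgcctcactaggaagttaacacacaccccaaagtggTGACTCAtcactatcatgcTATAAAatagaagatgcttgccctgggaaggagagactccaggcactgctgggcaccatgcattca
Mmp12, first start, chr9:7344147-7344446: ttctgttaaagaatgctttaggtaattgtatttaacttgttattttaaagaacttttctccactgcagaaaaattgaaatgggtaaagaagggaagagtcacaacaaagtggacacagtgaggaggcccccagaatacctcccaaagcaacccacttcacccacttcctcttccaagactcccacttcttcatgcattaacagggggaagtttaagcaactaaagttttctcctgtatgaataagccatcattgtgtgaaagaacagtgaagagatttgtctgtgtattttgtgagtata
Mmp12, second start, chr9:7347124-7347423: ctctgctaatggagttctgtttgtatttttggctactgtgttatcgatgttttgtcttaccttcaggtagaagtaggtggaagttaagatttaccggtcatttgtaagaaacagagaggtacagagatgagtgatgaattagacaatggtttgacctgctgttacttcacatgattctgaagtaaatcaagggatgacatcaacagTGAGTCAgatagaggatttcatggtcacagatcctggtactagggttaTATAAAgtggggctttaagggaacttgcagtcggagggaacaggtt
Mmp8, chr9:7558179-7558478: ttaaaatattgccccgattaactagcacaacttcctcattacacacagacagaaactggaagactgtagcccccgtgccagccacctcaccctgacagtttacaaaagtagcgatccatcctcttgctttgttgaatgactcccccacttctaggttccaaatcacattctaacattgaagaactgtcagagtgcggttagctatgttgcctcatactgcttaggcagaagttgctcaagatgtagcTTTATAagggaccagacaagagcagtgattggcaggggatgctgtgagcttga
The AP-1 letters begin at position -35 in the Mmp13 window and at -44 in the second Mmp12 window, and are absent from the Mmp8 window and the first Mmp12 window. Among all 32851 promoter windows of this length, 5.2% held the AP-1 letters and 13.6% held TATAAA or TTTATA. Windows were found for 7 of the 10 genes (8 windows), and the Plaur window (chr7:24462233-24462532) was the only other one of the 8 with the AP-1 letters. These matches describe the letters and not binding.

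**Figure D1:**
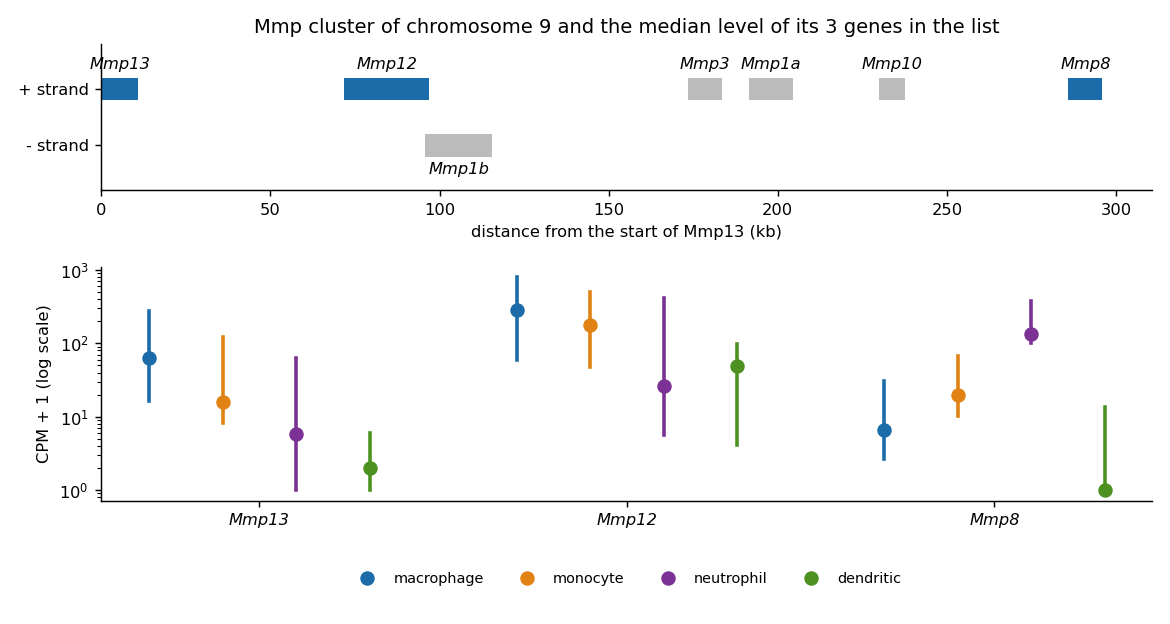
Upper panel: genes of the chromosome 9 cluster by distance from the start of Mmp13 (kb), Mmp13, Mmp12 and Mmp8 in blue. Lower panel: their level (CPM + 1, log scale) in each class, the point being the median and the bar the lowest to highest library; Mmp13 and Mmp12 have their highest medians in macrophages (62.8 and 286 CPM) and Mmp8 in neutrophils (131 CPM).

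Of the collagenases, Mmp8 (ENSMUSG00000005800), the neutrophil collagenase stored in granules, was highest in neutrophils. It had a median over libraries of 131 CPM in neutrophils (100.2 to 370.3, 10 libraries with at least 20 neutrophils), 19.0 CPM in monocytes (9.23 to 65.4, 12 libraries), 5.55 CPM in macrophages and 0 in dendritic cells, where 10 of 12 libraries had no UMI. All 10 libraries had more Mmp8 in neutrophils than in monocytes, and the 2 sets of library values did not overlap. The monocyte level was 17.4% of the neutrophil level of the same library (median of 10), whereas S100a8, S100a9 and Retnlg, other neutrophil transcripts, stood at 0.752%, 0.696% and 0.717% there. Whether the Mmp8 UMIs came from cells of the monocyte class was not tested.

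Mmp13 (ENSMUSG00000050578), which cleaves fibrillar collagens, was instead highest in macrophages, at a median of 62.8 CPM (15.2 to 276). Monocytes had 15.0 CPM (7.11 to 120.2), neutrophils 4.74 CPM and dendritic cells 1.02 CPM, the last pair in that order in 6 of 10 libraries. It was higher in macrophages than in monocytes in 12 of 12 libraries (median log2 difference 1.71, 1.00 to 2.75), although the 2 ranges overlapped. Library 4 was the highest in both classes, and without it the range was 15.2 to 192 CPM in macrophages and 7.11 to 33.0 CPM in monocytes.

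Mmp12 (ENSMUSG00000049723), macrophage elastase, was highest in macrophages and was unevenly held by them. The median was 286 CPM in macrophages (59.1 to 790), 176 CPM in monocytes (46.9 to 495), 47.8 CPM in dendritic cells and 25.4 CPM in neutrophils. Dendritic cells and neutrophils could not be ordered, since dendritic cells were the higher in only 4 of 10 libraries. Without library 4 the range was 59.1 to 514 CPM in macrophages and 46.9 to 335 CPM in monocytes. The macrophage level passed the monocyte level in 12 of 12 libraries, by a median log2 difference of 0.71 (0.13 to 1.31). In neutrophils, libraries 3 and 9 had 405 and 411 CPM while the other 8 had 4.67 to 131 CPM, and the richest 1% of neutrophils (26 cells) held 65.4% of its UMIs there. In macrophages the richest 1% of cells (963) held 50.7% of all Mmp12 UMIs and 37.9% of Mmp13 UMIs, against 7.66% of Mmp14 and 9.81% of Timp2 UMIs. A single macrophage barcode held up to 673 Mmp12 UMIs. T cells, the main reference for free RNA, had medians of 11.4 CPM of Mmp12 (0 to 76.0) and 0.901 CPM of Mmp13 (0 to 15.2). For both genes the T cell range overlapped those of dendritic cells and neutrophils.

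Mmp9 (ENSMUSG00000017737, chr2:164940780-164955850), the gelatinase kept in neutrophil granules, had its highest level in neutrophils. Neutrophil libraries ran from 276 to 1152 CPM with a median of 513 CPM. Monocytes had 7.35 CPM, macrophages 3.06 CPM and dendritic cells 2.83 CPM, and the T cell reference had 1.87 CPM. Monocytes were above macrophages in 10 of 12 libraries and macrophages above dendritic cells in 8 of 12. Macrophages were far more numerous, and neutrophils held 36.3% of the Mmp9 UMIs of all kept cells, macrophages 34.0% and monocytes 9.05%. A UMI was found in 40.9% of neutrophils (39.0 to 42.8%, exact binomial interval) and 0.489% of T cells, at median depths of 1395.5 and 1962.5 UMIs. After every cell was thinned to 1000 UMIs, which left out 32.9% of the neutrophils, the shares were 26.9% and 0.304%. Such intervals cover counting error only, and over 10 libraries the thinned neutrophil share ran from 18.2 to 50%. In the monocyte class, 21.9% of Mmp9 UMIs came from 83 barcodes with at least 2 collagen-list UMIs, and without them the median there was 2.99 CPM. Such barcodes held 14.5% of the Mmp9 UMIs in macrophages and 51.2% of the 43 in dendritic cells.

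Mmp14 (ENSMUSG00000000957, chr14:54431612-54445364), the membrane-anchored activator of Mmp2, was highest in macrophages. Macrophages had 212 CPM (154 to 257), monocytes 103 CPM (81.5 to 151), dendritic cells 24.9 CPM (16.0 to 38.3) and neutrophils 16.9 CPM (9.11 to 32.7). Macrophage and monocyte values did not overlap, nor did those of monocytes and dendritic cells, while dendritic cells and neutrophils could not be ordered (8 of 10 libraries higher in dendritic cells). Mmp19 (ENSMUSG00000025355, chr10:128790910-128800824), an enzyme of basement membrane proteins, was led by monocytes. Its median was 55.9 CPM in monocytes (37.6 to 305), 29.7 CPM in macrophages (12.5 to 83.1), 5.49 CPM in dendritic cells and 2.82 CPM in neutrophils, of which the last pair could not be ordered (4 of 10 libraries higher in dendritic cells). Monocytes were above macrophages in 12 of 12 libraries (median log2 difference 1.13). Library 4 held the monocyte maximum of 305 CPM, and the other 11 libraries reached at most 111 CPM in monocytes and 50.3 CPM in macrophages.

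The inhibitors had their highest levels in different classes. Timp2 (ENSMUSG00000017466, chr11:118301069-118355740, on the - strand) was a macrophage transcript, at 443 CPM (335 to 553) against 206 CPM in neutrophils (98.3 to 314), 42.04 CPM in monocytes and 23.0 CPM in dendritic cells. Macrophages and neutrophils did not overlap, and the macrophage level was higher in 10 of 10 libraries. T cells had 55.1 CPM of Timp2, or 12.1% of the macrophage level in the same library, where Apoe, an abundant macrophage transcript, stood at 3.51%. In neutrophils Timp2 stood at 48.6% of the macrophage level and Apoe at 6.89%. Cep295nl overlaps Timp2 on the same strand, so their reads may be shared. Timp1 (ENSMUSG00000001131, chrX:20870166-20874735, within Syn1 on the other strand) was highest in monocytes, at 40.3 CPM (17.4 to 283). Dendritic cells had 12.8 CPM, macrophages 5.21 CPM and neutrophils 0.804 CPM. These classes could not be ordered, with dendritic cells above macrophages in 9 of 12 libraries and macrophages above neutrophils in 8 of 10.

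The monocyte class also held stromal transcripts, and their part in the Timp1 level was measured by leaving out barcodes. All 5 genes of the fibroblast list (Col1a1, Col1a2, Col3a1, Dcn, Pdgfrb) had UMIs there, at a summed level of 135 CPM (1.595 to 847) against 10.9 CPM (5.53 to 38.3) in macrophages. Of the 4223 Timp1 UMIs in monocytes, 907 (21.5%) came from the 83 collagen-positive barcodes, 0.753% of the class, and 563 of them from a single barcode that also held 1051 collagen-list UMIs. Without these barcodes Timp1 had a median of 30.9 CPM in monocytes (15.3 to 195). Its log2 difference of medians from dendritic cells was 1.58, went to 1.23 with such barcodes left out of both classes, and was 2.86 with a leading list at least 3 times the others and 3.03 with cells thinned to 1000 UMIs. Library 4 stood apart for Timp1 in both main classes, with 87.2 CPM in macrophages against 2.72 to 11.4 CPM in the other 11, and 283 CPM in monocytes against 17.4 to 103 CPM. The barcode with 563 Timp1 UMIs lay in library 4, since monocytes of no other library had more than 490. Without the collagen-positive barcodes, library 4 had 195 CPM in monocytes and 85.9 CPM in macrophages.

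The urokinase gene Plau (ENSMUSG00000021822, chr14:20836660-20843385) was highest in macrophages, at 46.1 CPM (16.4 to 98.9). Monocytes (15.2 CPM) and neutrophils (14.5 CPM) could not be ordered, with 7 of 10 libraries higher in monocytes, and dendritic cells had 1.83 CPM. Its receptor Plaur (ENSMUSG00000046223, chr7:24462484-24475968) had another order, with 1095 CPM in neutrophils (736 to 1834), 484 CPM in monocytes (216 to 876), 322 CPM in macrophages (171 to 551) and 32.9 CPM in dendritic cells (15.2 to 59.0). Neutrophils were above monocytes in 10 of 10 libraries, and macrophages were above dendritic cells in 12 of 12 without overlap. Monocytes were above macrophages in 10 of 12. T cells had 21.5 CPM of Plaur (11.4 to 50.3), a range that overlapped the dendritic values. B cells, with at least 20 cells in only 2 libraries, had 149 and 205 CPM there, above every dendritic value. The receptor and the enzyme therefore had their highest medians in different classes.

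**Figure D2:**
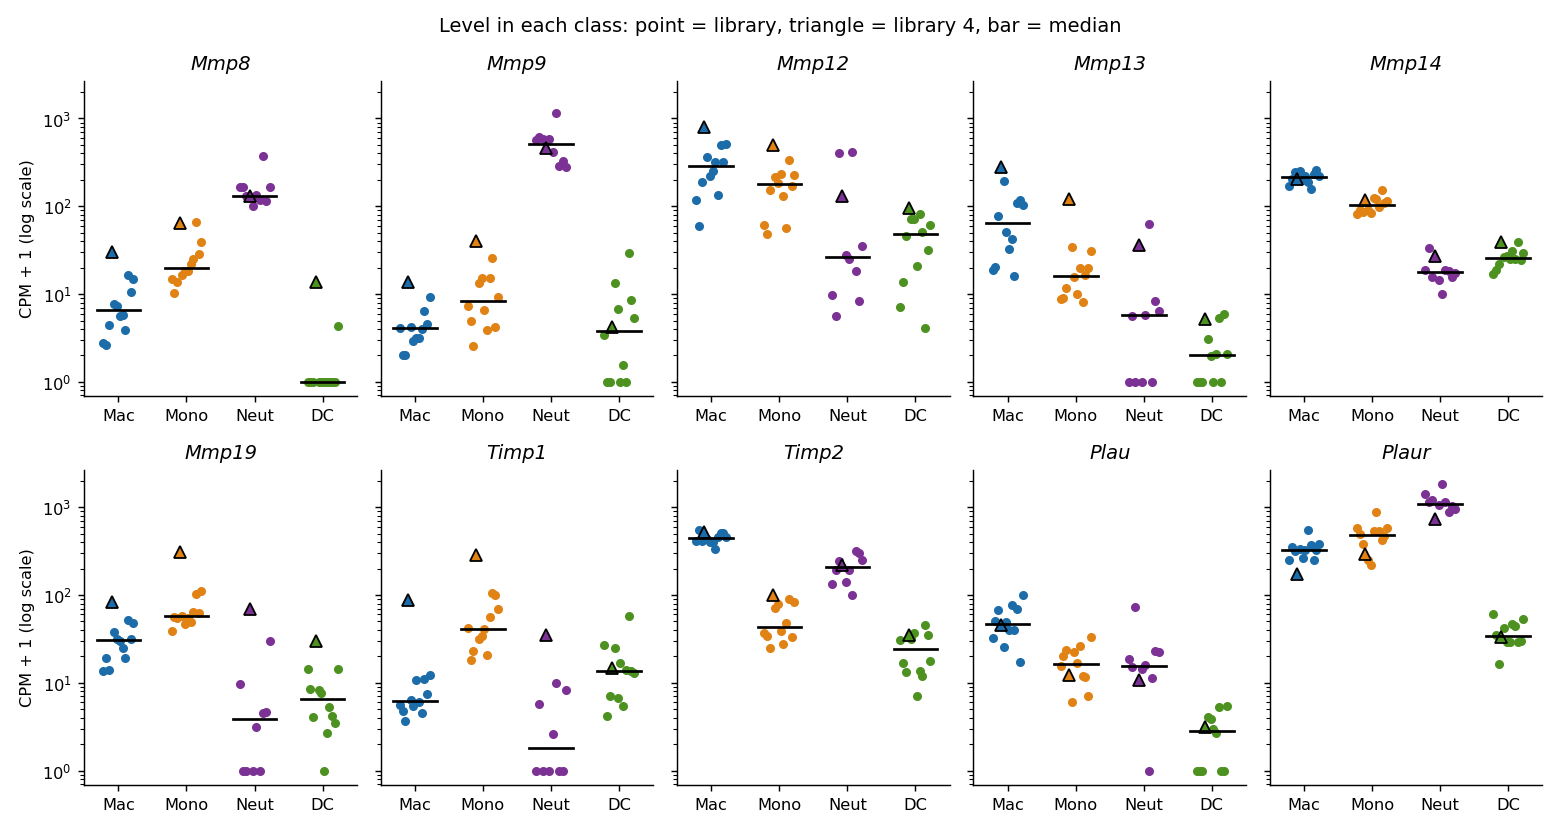
Level of each gene (CPM + 1, log scale) in macrophages (Mac), monocytes (Mono), neutrophils (Neut) and dendritic cells (DC). Each point is a library with at least 20 cells of the class, the triangle is library 4 and the bar the median; Mmp8, Mmp9 and Plaur are highest in neutrophils, Mmp12, Mmp13, Mmp14, Timp2 and Plau in macrophages, and Mmp19 and Timp1 in monocytes.

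Against macrophages, members past a median 4-fold difference (on log2 of CPM + 1) were counted beside all genes with at least 10 CPM in either class. Several members reached this level only in the class where they were higher (Mmp8, Mmp9, Mmp13 and Mmp19 for neutrophils, Mmp13, Mmp19, Timp1 and Plau for dendritic cells, Mmp8 and Timp1 for monocytes), so the counts are a description and nothing is read from them. Timp1 was under this level in macrophages and neutrophils, and neutrophils had 2 of 9 tested members higher (Mmp8 and Mmp9; 6.11% of all tested genes) and 4 lower (Mmp12, Mmp13, Mmp14 and Mmp19; 25.4%). Libraries did not overlap for 3 higher members (Mmp8, Mmp9, Plaur; 9.85%) and for 2 lower ones (Mmp14, Timp2; 32.7%). Mmp8 and Mmp9 were under it in macrophages and dendritic cells, which had 0 of 8 members higher (4.23%; not overlapping 0, 7.78%) and 6 lower (Mmp12, Mmp13, Mmp14, Timp2, Plau and Plaur; 5.69%), 5 of them without overlap of libraries (11.4%). Monocytes, where Mmp9 was under it, had 1 of 9 members higher (Timp1; 1.44%; 0 members on log2 of CPM + 10) and 1 lower (Timp2; 1%), with 0 higher (2.56%) and 2 lower (Mmp14 and Timp2; 4.24%) without overlap.

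Other genes of the same system were read from a fixed list of 29, of which 11 reached 20 CPM in a class and 18 did not. Of 12 further metalloproteinases, 9 had medians under 1 CPM in each of the 4 classes, and the 2 that reached 20 CPM were the gelatinase Mmp2, at 34.8 CPM in macrophages (19.6 to 99.8), and Mmp25, at 30.3 CPM in dendritic cells. The highest class median was 1.71 CPM for Timp3 and 0 CPM for Timp4. Plg, the plasminogen gene, had 0 UMIs. Neutrophils had the highest medians of Cd44 (1505 CPM), Lcn2 (576 CPM), Adam8 (467 CPM), Bsg (419 CPM) and Plgrkt (240.4 CPM). Macrophages had those of Lrp1 (208 CPM), Adam10 (111 CPM) and Adam17 (116 CPM). The leads of Bsg and Adam10 were small, with 381 CPM of Bsg in macrophages and 104 CPM of Adam10 in monocytes. Cd44 binds hyaluronan, and Lrp1 clears protease and inhibitor complexes.

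In macrophages the members with a median of at least 10 CPM fell into steady and variable genes across the 12 libraries. Mmp8, Mmp9 and Timp1 were under that level and have no ratio here, although Timp1 ran from 2.72 to 87.2 CPM. The highest library held 1.66 times the lowest for Mmp14 and 1.65 times for Timp2 (ratio of CPM + 1), close to the median of 1.66 over 7269 genes. The ratio was 17.1 for Mmp13, 13.2 for Mmp12, 6.22 for Mmp19, 5.74 for Plau and 3.20 for Plaur. Without library 4 it was 11.9 for Mmp13, 8.57 for Mmp12 and 3.80 for Mmp19, with 5.74 for Plau and 2.21 for Plaur, against a median of 1.597 over all genes. Mmp12 was highest in library 4 (790 CPM), then in libraries 12 (514 CPM) and 10 (496 CPM), and lowest in library 2 (59.1 CPM). Plaur went the other way in library 4, which had the lowest macrophage value (171 CPM against 249 to 551 CPM) and the lowest neutrophil value (736 CPM against 880.3 to 1834 CPM). The range of the libraries with Y transcripts (6, or 4 for neutrophils) overlapped that of the other libraries for every member in each class. For Mmp8 and Mmp14 in monocytes, library 4 alone made the overlap. The remaining libraries with Y transcripts had at most 17.085 CPM of Mmp8 and 90.8 CPM of Mmp14. Those without had at least 17.096 and 98.3 CPM. The bounding Mmp8 values came from 41 UMIs (library 6) and 93 UMIs (library 7). Nothing is read from these bounds, since the share of all genes that part in this way is not given. Depth differed as well, with macrophage medians of 2372 to 9888 UMIs with Y transcripts and 5791 to 20558 without.

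**Figure D3:**
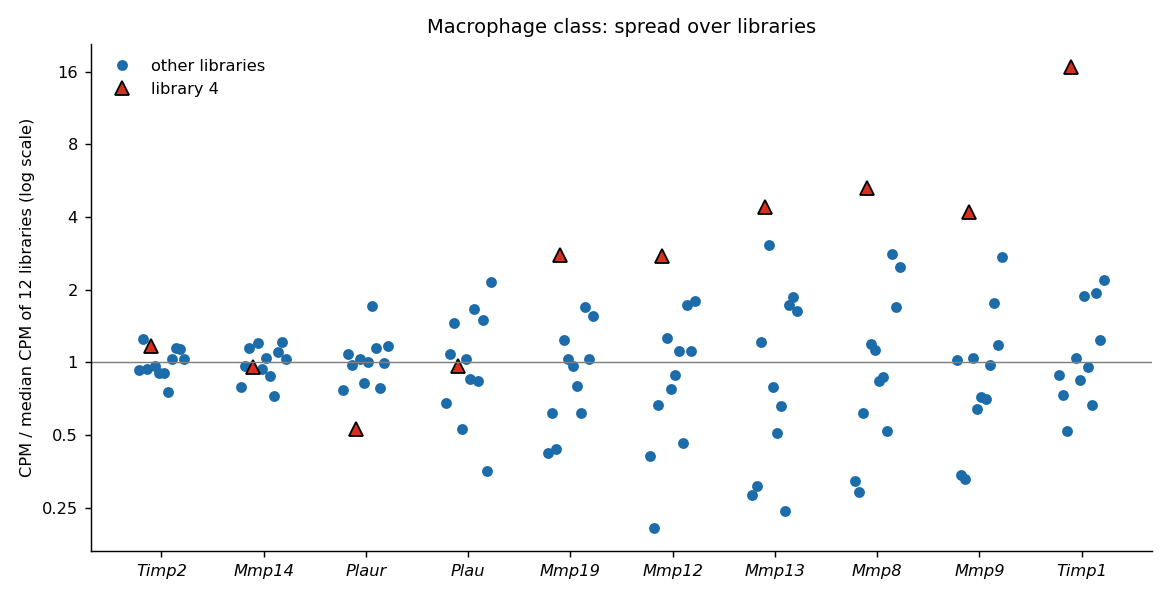
Macrophage level of each gene in each library divided by its median over 12 libraries (log scale). Mmp14 and Timp2 stay close to 1, and library 4 (red triangle) is the highest for Timp1, Mmp8, Mmp9, Mmp13, Mmp12 and Mmp19 and the lowest for Plaur. The share of all genes that are highest or lowest in library 4 is not given, so this is not read as a trait of the members.

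Macrophages were then split by Arg1, an enzyme of arginine breakdown, and Cxcl9, an interferon-induced chemokine, neither of which was used in the gates. After thinning to 1000 UMIs, 26287 cells had Arg1 alone, 14770 had Cxcl9 alone, 5004 had both and 48552 had neither. Mmp12 had a median of 691 CPM in cells with Arg1 alone (129 to 1506) and 61.8 CPM in cells with Cxcl9 alone (22.8 to 284), a median log2 difference of 3.10, in the same direction in 12 of 12 libraries. Cells with both had 146 CPM and cells with neither 177 CPM, so Mmp12 was lower with Cxcl9 alone than with neither marker in 12 of 12 libraries as well.

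Mmp13 (104 against 40.2 CPM, log2 1.27), Mmp19 (39.7 against 14.8 CPM, log2 1.09) and Mmp8 (11.99 against 0.852 CPM) were also higher with Arg1 alone in 12 of 12 libraries. These 4 of 9 compared members (Mmp9 was too low) stood beside 5.1% of 7390 genes higher in every library, and 0 members beside 4.01% lower in every library. Mmp8 and Timp1 reached the 10 CPM needed to be compared only in the cells with Arg1 alone, so nothing is read from the count of members. Mmp8 had 31 UMIs in the 14770 cells with Cxcl9 alone, with 0 CPM in the lowest library. Timp1 had 12.2 against 3.95 CPM and was higher in 10 of 12 libraries. Timp2 was higher in 11 of 12 libraries (501 against 363 CPM), Plau in 10 (60.3 against 34.9 CPM) and Plaur in 10 (352 against 327 CPM). Mmp14 had 212 against 228 CPM, with 3 libraries higher in Arg1 cells and 9 in Cxcl9 cells. Mmp13 showed the contrast with Arg1 only, since cells with Cxcl9 alone and with neither differed by a median log2 of -0.01 (6 libraries each way). Without library 4, the median differences of Mmp12, Mmp13, Mmp19, Mmp14, Timp2, Plau and Plaur kept their direction.

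**Figure D4:**
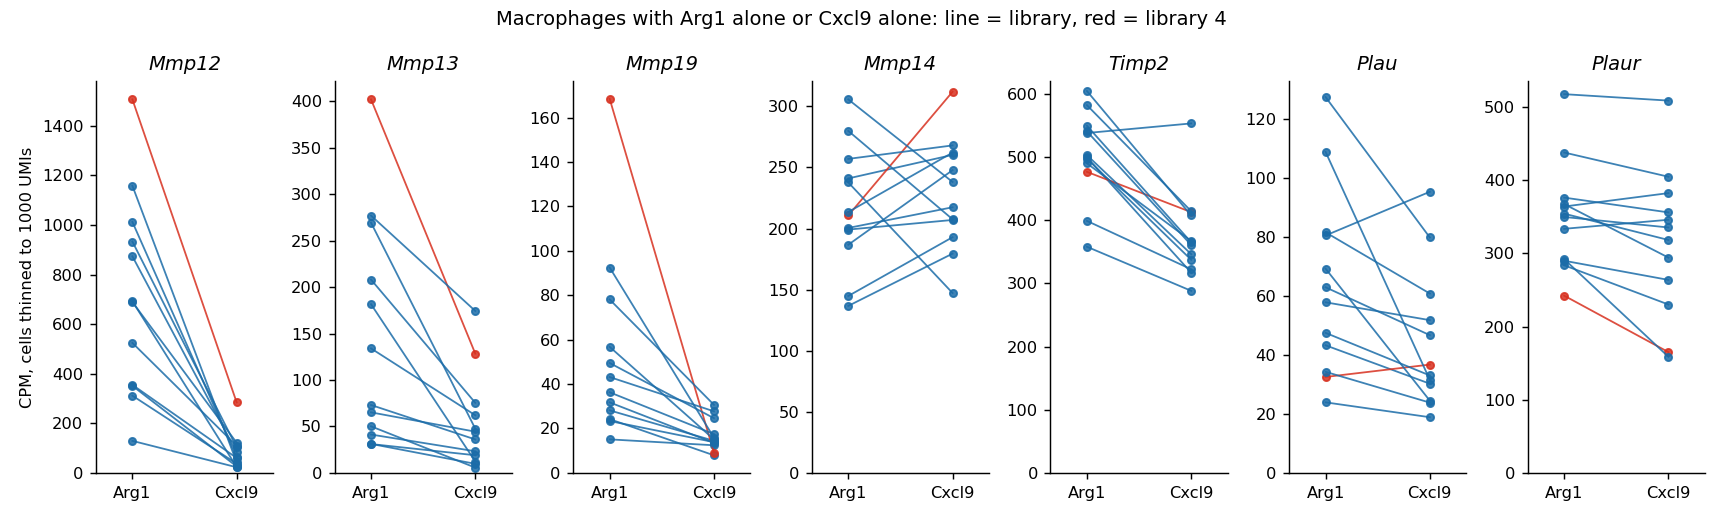
CPM in macrophages thinned to 1000 UMIs with Arg1 alone (left) or Cxcl9 alone (right), one line for each of 12 libraries, library 4 in red. Every line falls for Mmp12, Mmp13 and Mmp19, while Mmp14 lines cross.

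Neutrophils were split by Retnlg, a transcript of blood neutrophils not used in the gates, in the 7 libraries with at least 20 thinned cells in each part. Mmp8 had a median of 204 CPM with Retnlg and 114 CPM without (median log2 difference 1.43), higher in 7 of 7 libraries. Plaur had 1364 against 828 CPM (log2 0.51) and Mmp9 438 against 386 CPM (log2 0.12), each higher in 7 of 7. The 3 of 7 compared members (Mmp13, Mmp19 and Timp1 were too low) stood beside 1.45% of 5099 genes higher in every library. There were 0 members beside 2.65% lower. Mmp12 (4.74 CPM with Retnlg, 25 without) and Mmp14 (9.95 and 15.2 CPM) reached the 10 CPM needed only in cells without Retnlg. Nothing is therefore read from the count of members. With thinning to 500 UMIs, which was chosen after the data were seen and kept 9 libraries, Mmp8 was higher in 9 of 9 (269 against 74.1 CPM), Plaur in 8 (1405 against 943 CPM) and Mmp9 in 6 (718 against 514 CPM). Timp2 was higher in 5 of 7 libraries at 1000 UMIs and in 8 of 9 at 500.

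**Figure D5:**
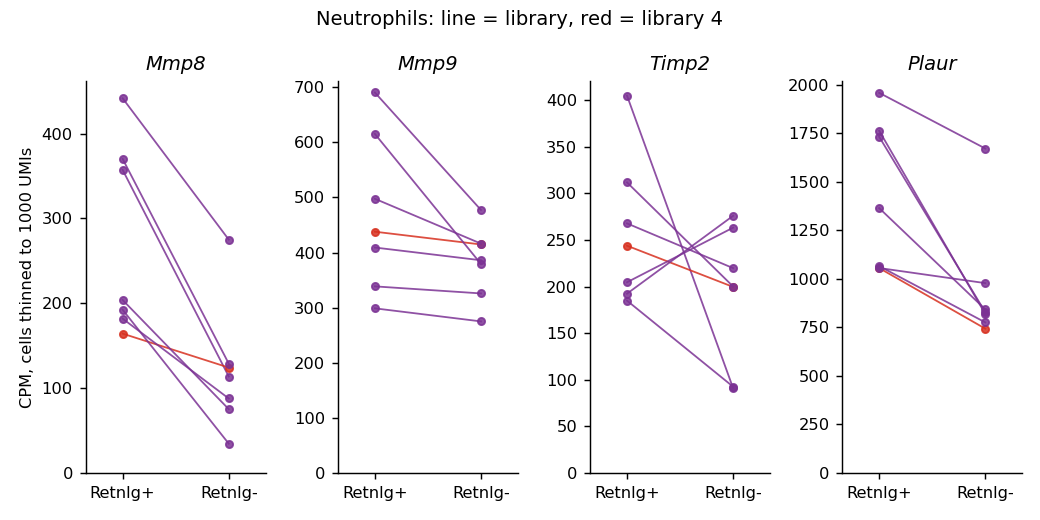
CPM in neutrophils thinned to 1000 UMIs with and without a Retnlg UMI, one line for each of 7 libraries, library 4 in red. Mmp8, Mmp9 and Plaur fall in every library, and Timp2 lines cross.

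Within single cells, members were found together to different degrees. After thinning to 1000 UMIs, 1717 macrophages had both Mmp12 and Mmp13, 2.61 times the 657 given by their shares within libraries, with the ratio above 1 in 9 of 9 libraries that could be counted (2.06 to 5.08). Mmp12 and Plau had a ratio of 1.52 (11 of 12 libraries) and Mmp13 and Plau 1.56 (8 of 8). Mmp14 with Timp2 had 1.02, Mmp12 with Timp2 0.995 and Plau with Plaur 1.01, close to the product of their shares. In neutrophils Mmp8 and Mmp9 were found together in 95 cells, 1.87 times the 50.9 given by their shares, with 4 of 4 libraries above 1.

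Across 46 points, each a class in a library, the genes most like each member by Pearson's r of log2(CPM + 1) were read from 8241 genes. The points share libraries and cell types, so r is a description, and 16 of the 30 nearest genes (3 for each member) were shared with those on log2(CPM + 10). For Mmp14 they were Ctss (0.95), Ctsc (0.95) and Dab2 (0.94), and for Timp2 Ctsd (0.94), Syngr1 (0.91) and Ctsb (0.89). Plau was nearest to Cd68 (0.89), Ctsb (0.86) and Tom1 (0.85). Mmp13 was nearest to Siglec1 (0.87) and Glul (0.87), and Mmp12, with no gene above 0.80, to Nek9 (0.80), Uba1 (0.78) and Man1c1 (0.78). For the neutrophil members, Mmp8 was nearest to Gda (0.96), Fpr2 (0.96) and Grina (0.96), Mmp9 to F3 (0.96), Jak1 (0.95) and 2310001H17Rik (0.95), and Plaur to Cebpb (0.97) and Cd14 (0.96). For the monocyte members, Mmp19 was nearest to Rai14 (0.89), Ifi211 (0.89) and F13a1 (0.85), and Timp1 to S100a10 (0.84), Vcan (0.78, a gene of the monocyte gate) and Tspo (0.77).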

How the data were processed

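The deposited file is 1 matrix of raw UMI counts that the authors made from 10x Genomics v3 libraries; its header names Cell Ranger 3.0.2, while the submitters' processing notes list Cell Ranger 2.1.1, Seurat and mm10. Aligner settings, and any sampling of reads to equal depth, are not stated in the sources used here. The genes and lists were chosen with earlier results of these data known.

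Barcodes were kept when they had over 200 and under 5000 genes, with mitochondrial UMIs of up to 10% (91.7% of 140639 barcodes). Class lists were C1qa, C1qb, C1qc, Adgre1, Ms4a7 and Mertk for macrophages; Ly6c2, Plac8, Chil3 and Vcan for monocytes; Csf3r, Cxcr2, G0s2 and Ly6g for neutrophils; and Flt3, Zbtb46, Xcr1, Clec9a, Cd209a, Ccr7 and Fscn1 for dendritic cells. Cells with at least 2 T or B cell list UMIs were left out of these classes. The main reference for free RNA was 3478 T cells, and a smaller one was 252 B cells. UMIs were summed per class and library and scaled to CPM where a library had at least 20 cells of the class. No doublet caller was run; stricter gates were tried instead. For splits and for sharing of cells, each cell was thinned to 1000 UMIs, and shallower cells were left out. Named genes were all members, for each member the 3 genes most like it, and those genes of the fixed list of 29 with at least 20 CPM in a class; some genes that this rule names are not reported here. Genes named within classes beyond these were chosen after their values were seen. No test was run, since nothing maps the cells of the pooled matrix to the labelled samples; library values describe spread. Scripts were tested on simulated data and used pandas 2.3.3, matplotlib 3.10.9, scipy 1.17.1 and numpy 2.4.6 under Python 3.11.15.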

Additional observations from a re-analysis of the deposited data

Results flagged for a closer look

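A set of barcodes picked by stromal transcripts, which the comparisons above did not use as a group, also held transcripts of these genes. Across 11 libraries, 160 barcodes had at least 3 UMIs of the fibroblast list and none of Ptprc, with up to 64 in a single library. The class gates did not require Ptprc, and 123 of the 160 lay in a class (64 macrophages, 49 monocytes and 10 dendritic cells), while 37 lay in none of the 4. Pooled, the 160 held Timp1 at 540.3 CPM (508 to 574, exact Poisson interval over counts), Mmp9 at 154 CPM (137 to 172) and Mmp3, a stromelysin, at 86.2 CPM (73.6 to 100.4). T cells had 0.519 CPM of Timp1 and 2.49 CPM of Mmp9 when pooled, and Mmp3 had a median of 0.0853 CPM in macrophages. The Mmp3 UMIs lay in 9 barcodes, those of Mmp9 in 79 and those of Timp1 in 103. Of the 1040 Timp1 UMIs, 563 came from a single barcode of the monocyte class, so the Poisson interval does not show spread between barcodes. Mmp14 (186 CPM), Timp2 (321 CPM) and Mmp2 (123 CPM) were also present, and Mmp8 had 0 UMIs. The same barcodes held 554 CPM of C1qa and 878 CPM of Lyz2. Of the 160, 68 had under 3 macrophage-list UMIs. These held Lyz2, which is not in that list, at 109 CPM, Timp1 at 1157 CPM and Mmp9 at 180 CPM. The 68 included that monocyte-class barcode, which held 563 of their 894 Timp1 UMIs. The 37 outside the classes had Timp1 at 183 CPM (140 to 236), Mmp9 at 278 CPM (224 to 341) and Mmp3 at 326 CPM (268 to 394), the last from 2 barcodes. The identity of the 160 barcodes was not tested.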

How the results depend on the processing

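Among 170 alternatives over 31 results, 162 kept the direction and moved by less than the spread between libraries. Of the rest, 7 moved by more and 1 reversed. None of 120 further values, 10 class differences with each library left out in turn, moved by more than that spread. Leaving out 1 library shifts a class median only toward a neighbouring value, so little is read from these 120. With a leading list at least 3 times the others, Mmp13 macrophage minus monocyte went from a log2 of 1.998 to 2.98, and Timp1 monocyte minus dendritic from 1.58 to 2.86; the latter was 3.03 with cells thinned to 1000 UMIs. In the Retnlg split, Mmp8 was 2.105 without thinning, Mmp9 was 0.44 at 500 UMIs and Mmp14 went from -0.86 to 0.085 without library 4. With log2(CPM + 10), 0 members were past 4-fold higher in monocytes, and 16 of the 30 most similar genes were shared. Differences of medians with each library left out ran from 5.61 to 6.28 for Mmp9 (neutrophil minus monocyte), 0.48 to 0.89 for Mmp12, 1.63 to 2.31 for Mmp13 and 1.53 to 1.63 for Timp1. The causes were not tested. For EZH2i and vehicle, no paired analysis was possible because the barcodes give no library a group or replicate number. Values called a median log2 difference were paired within libraries. The class differences of this section are instead differences of class medians and were not paired (for Mmp13, 1.998 against a paired 1.71). Depth limits the neutrophil class most, where levels near 1 UMI carry no order.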

Other observations

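Genes higher in cells with a member than in cells without it, in every library compared, were listed after thinning to 1000 UMIs; the genes named were the first by size and were chosen after their values were seen. Macrophages with Mmp12 had more Mmp13 (265 against 42.4 CPM), Tnfrsf9 (94.3 against 9.82 CPM), Atp6v0d2 (117 against 14.1 CPM), Nos2 (74.7 against 9.90 CPM) and Ccl17 (131 against 18.8 CPM) in 12 of 12 libraries, beside 8.77% of 3193 genes. Macrophages with Mmp13 had more Mmp12 (1728 against 233 CPM), Ndrg1 (135 against 42.1 CPM) and Nos2 (47.0 against 13.4 CPM), beside 3.19% of 3256 genes. Macrophages with Timp2 had a different set, led by the chemokine Ccl8 (993 against 409 CPM), Gpnmb (209 against 81.2 CPM) and the folate receptor Folr2 (60.7 against 18.5 CPM), beside 8.41% of 3342 genes. Those with Plaur had more Inhba (49.1 against 24.2 CPM), Areg (54.7 against 32.2 CPM), Il1b (2335 against 1640.1 CPM) and Vegfa (270 against 197 CPM), beside 3.07% of 3287 genes.

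Monocytes with Mmp19 had more Lmna (250 against 108 CPM), Ccl9 (808 against 431 CPM), Emp1 (231 against 82.1 CPM) and Ccl2 (1222 against 565 CPM) in 11 of 11 libraries, beside 0.714% of 3081 genes. Neutrophils with Mmp8 had more Ngp, a granule protein made during maturation (215 against 9.23 CPM), and Ly6g, a gene of the neutrophil gate (109 against 7.31 CPM), in 4 of 4 libraries, beside 13.4% of 2342 genes. These lists describe cells in which the member was captured and do not show what the members do.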
